A study of Mus musculus and Homo sapiens with 15 samples.

Results

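Grafted tumours grown in C57 mice were compared after arsenic trioxide (ATO) and after phosphate-buffered saline (PBS), using 4 of the 15 RNA sequencing libraries of the series. The labels call the system a CDX model in C57 mice, give the sample as tumor and the genotype as WT for all 4 libraries, and set 2 ATO libraries against 2 PBS libraries. They do not name the grafted cells, the dose, the duration of treatment or the site of the graft, and they do not say whether replicates came from separate mice. The p-values below therefore measure the spread between these samples, which may be technical. The series set out to compare T-lymphoma transcriptomes with and without ATO, and its other libraries, from mice and cells with p53 R282W, are not analysed here. All 4 libraries were included because the labels place them in this experiment, and no expression value was used to choose them.

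ATO is an arsenic compound used in acute promyelocytic leukaemia, where it binds cysteines of the PML part of the PML-RARA fusion and leads to its SUMO-dependent degradation. Arsenic reacts with thiols, and cells often answer it with metallothioneins, haem oxygenase and other NRF2 targets. Binding to cysteines of some structural p53 mutants has also been described, with p53 target genes such as Cdkn1a and Mdm2 as the usual readout. A T-lymphoma graft is a mixture of tumour cells, which carry the T-cell programme, and host cells such as macrophages, vessels, fibroblasts and, at its edge, muscle.

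The total number of counted reads per library ranged from 12922147 to 15637644, and 20679 to 24034 of the 56691 genes in the table had at least 1 read. Levels are given below in CPM, the usual depth-scaled counts, after TMM scaling, and gene-to-gene statements use the authors' FPKM, which divide by exonic size. Of 15468 tested genes, 2157 (13.9%) passed an adjusted p of 0.05 in edgeR's quasi-likelihood test. Among all tested genes 7.37% were called higher after ATO (1140) and 6.57% lower (1017). Those 2 shares are the background for each list below, and the median log2 fold change of all tested genes was 0.04. With total counts in place of TMM scaling that median was 0.235, and the calls split into 1800 higher and 520 lower. The 2 groups did not overlap in 61.7% of the tested genes and in all 2157 called genes. Absence of overlap therefore adds nothing to a call. Without PBS replicate 1 the number of calls was 685, and 458 of the 2157 calls were kept in all 4 fits that left out 1 library.

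**Figure D1:**
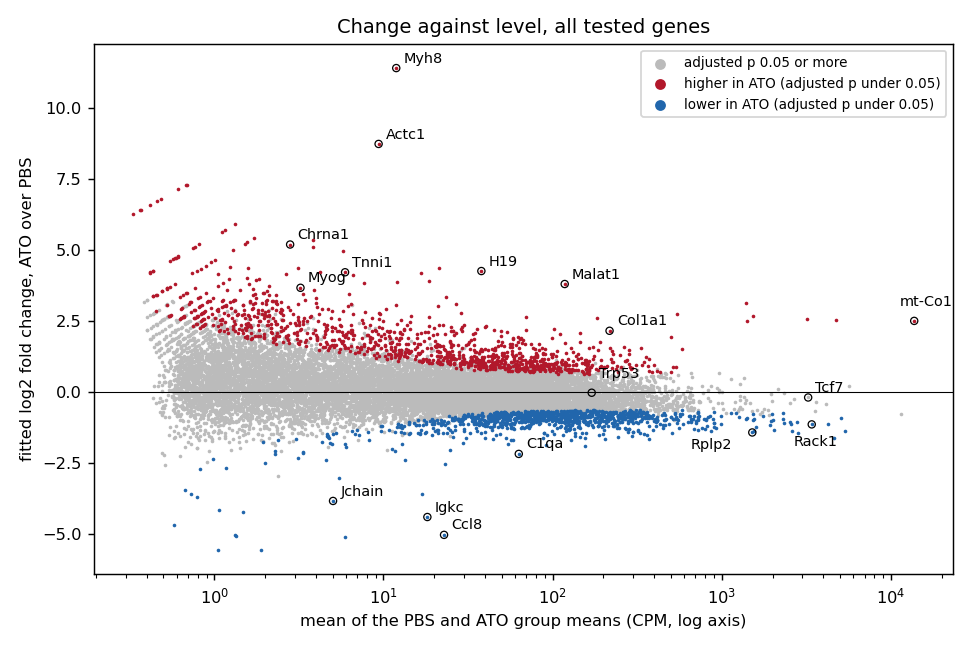
Fitted log2 fold change, ATO over PBS, against the mean level in CPM on a log axis, 1 point for each of the 15468 tested genes. Red points (1140) were called higher and blue points (1017) lower; muscle genes such as Myh8 and Chrna1 lie at the top at low levels, mt-Co1 at the far right above 0, and Igkc, Jchain and Ccl8 at the bottom.

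The libraries carried the transcripts of an immature T-cell tumour in both groups. Tcf7, a transcription factor of early T cells, stood at 3528 and 3410 CPM after PBS and 2911 and 3136 after ATO (log2 fold change -0.20, SE 0.21, adjusted p = 0.563). In the authors' FPKM, Trbc2, a constant segment of the T-cell receptor beta chain, was at 2504 and 2528 after PBS and 2084 and 1516 after ATO. On the same scale Tcf7 lay between 1012 and 1128, Cd3e between 116 and 156, and Rag1, a nuclease that recombines receptor genes, between 61.7 and 81.0 in the 4 libraries. Trbc1, the other constant segment of the beta chain, had 2 to 10 reads per library, and the liver gene Alb had 0 to 2.

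Of 20 tested T-cell genes 1 rose and 1 fell, with a median log2 fold change of -0.36. Of 10 immature thymocyte genes 2 fell and none rose. Among all tested genes 7.37% rose and 6.57% fell. The T-cell genes called lower numbered 4 without PBS replicate 2 and 7 without ATO replicate 1. Dntt, the polymerase that adds untemplated bases at receptor joints, stood at 1056 and 876 CPM after PBS and at 463 and 437 after ATO. It fell by 1.10 on the log2 scale (SE 0.21, adjusted p = 0.0109), and the groups did not overlap, as in every called gene. Cd3d, a chain of the CD3 signalling complex, was at 759 and 854 CPM after PBS and at 402 and 339 after ATO (log2 fold change -1.12, SE 0.21, adjusted p = 0.0104). Neither call depended on any 1 library.

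Other members of these lists behaved unevenly. Ptcra, the pre-T-cell receptor alpha chain, was at 177 and 82.5 CPM after PBS and at 69.0 and 25.9 after ATO, and fell by 1.45 (SE 0.42, adjusted p = 0.0423). Its log2 fold change was -0.82 and not called without PBS replicate 1, -2.33 without ATO replicate 1, and the call was lost with a trend in gene length removed, a fit described below. Cd4, the co-receptor of helper T cells, rose from 98.9 and 55.6 to 174 and 147 CPM (log2 fold change 1.06, SE 0.26, adjusted p = 0.0249), a call lost without PBS replicate 2. Neighbours in the same pathway did not pass the test: Rag1 had a log2 fold change of -0.02 (adjusted p = 0.969), Notch1, a receptor that drives the early T lineage, 0.07 (0.846), Cd8a -0.23 (0.502) and Lck, the kinase that starts receptor signalling, -0.76 (0.0586). Lck was called lower without PBS replicate 2 and without ATO replicate 1.

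The same receptor variable segment led in every library, by reads counted per gene. Joined segments were not examined. Trbv19, a variable segment of the beta chain, held 7668 and 5367 reads after PBS and 3703 and 3608 after ATO. It fell by 0.85 on the log2 scale (SE 0.24, adjusted p = 0.0375), and its call was lost without PBS replicate 1 or ATO replicate 2 and with the length trend removed. Segments with fewer reads differed among themselves. Trbv16 fell, from 422 and 729 reads to 197 and 75 (log2 fold change -2.04, and -3.02 without ATO replicate 1). Trbv12-2 fell from 75 and 592 reads to 56 and 68, a call lost without PBS replicate 2 (log2 fold change -0.37) and with the length trend removed, while without PBS replicate 1 the value was -3.22. Trbv13-2, with 340 and 477 reads after PBS and 445 and 521 after ATO (0.24, adjusted p = 0.540), and Trbv26, with 274 and 371 against 349 and 369 (0.16, adjusted p = 0.724), did not pass. These segments were chosen after their values were seen, and short variable segments can share reads with their neighbours.

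Transcripts of the mitochondrial genome rose. The mitochondrial DNA encodes core subunits of respiratory complexes I, III, IV and the ATP synthase, and 12 of its 13 protein genes were called higher, against the background of 7.37%. The exception was mt-Nd3, with 32 to 82 reads per library (log2 fold change 0.81, adjusted p = 0.262). Their median log2 fold change was 2.52, and the same number was called with total counts, in each fit without 1 library and with the trend in gene length removed. Summed over the 13 genes the level was 5325 and 10320 CPM after PBS, and 55400 and 36130 after ATO.

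Single mitochondrial genes show the size of the shift. mt-Co1, the catalytic subunit of cytochrome oxidase, was at 2673 and 5578 CPM after PBS and at 28546 and 18223 after ATO, so the lower ATO library stood above the higher PBS library. It rose by 2.50 on the log2 scale (SE 0.36, adjusted p = 0.00476), or by 3.10 without PBS replicate 2. mt-Nd5, a proton-pumping subunit of complex I, was at 139 and 439 CPM after PBS and at 2392 and 2620 after ATO (log2 fold change 3.12, SE 0.43, adjusted p = 0.00376). Without PBS replicate 1 the value was 2.50, and without PBS replicate 2 it was 4.15. The 2 ribosomal RNAs of the mitochondrion, mt-Rnr1 and mt-Rnr2, rose by 1.56 and 1.94.

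Some of these reads may be counted in more than 1 place. Gm13340 and Gm28439, nuclear pseudogenes with mitochondrial sequence, rose as well, from 19 and 25 reads to 376 and 260 and from 7 and 22 to 203 and 207. The log2 fold change of Gm28439 was 3.82, and 4.76 without PBS replicate 2. mt-Nd6 lies on the strand opposite to its neighbour mt-Nd5, and whether counting used strand is not given in the sources used here, so its rise of 2.73 cannot be told apart from reads of that neighbour.

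The nuclear genes of the same respiratory complexes went the other way. Of 25 nuclear-encoded subunits 16 fell and none rose, against a background of 6.57% lower, with a median log2 fold change of -0.80. Cox4i1, a structural subunit of cytochrome oxidase, was at 1016 and 948 CPM after PBS and at 407 and 385 after ATO, well apart (log2 fold change -1.31, SE 0.20, adjusted p = 0.00562). Ndufb8 of complex I fell by 1.03 (SE 0.20, adjusted p = 0.0116), and both held without any 1 library. Sdhb, the iron-sulphur subunit of complex II, fell by 0.88 (SE 0.20, adjusted p = 0.0200) and Atp5b, the catalytic subunit of the ATP synthase, by 0.93 (SE 0.22, adjusted p = 0.0212), both lost without PBS replicate 1. Without that library 2 of the 25 were called, with total counts 8, and with the length trend removed 9.

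Ribosomal protein genes fell after ATO. They encode the proteins of the cytosolic ribosome, and their messenger RNAs typically begin with a run of pyrimidines that couples their translation to growth signals. Of 35 tested members 26 fell and none rose, the median log2 fold change was -0.98, and all 35 fitted values were below 0 (-1.43 to -0.11). Summed, the list stood at 69770 and 67870 CPM after PBS and at 36580 and 31610 after ATO. Between 19 and 31 members were called lower when 1 library was left out, 22 with total counts and 21 with the length trend removed.

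Gene starts of 3 of the genes that fell are shown because they carry that pyrimidine run. Each line gives 20 bases before and 20 after the annotated start, from RefSeq on GRCm38.p6. Capitals mark 1 motif per gene on the sense strand, CTTTC in Rplp2 and Rpl18 and CTTTT in Rack1. Rack1 also holds an overlapping CTTTC that ends at base 1 of the transcript and is not marked. Rplp2 is at chr7:141447631-141447670, Rpl18 at chr7:45718051-45718090 and Rack1 at chr11:48800340-48800379, all on the plus strand.
Rplp2: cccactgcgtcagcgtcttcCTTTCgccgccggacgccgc
Rpl18: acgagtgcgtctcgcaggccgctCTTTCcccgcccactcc
Rack1: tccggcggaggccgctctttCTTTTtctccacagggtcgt
The capitals begin at base 1 of the annotated transcript in Rplp2 and Rack1 and at base 4 in Rpl18. Within 20 bases before to 30 after the start, CTTTC occurred in 8 of the 26 list members with a promoter entry (30.8%), against 6.46% of the 27025 genes with an entry, where 1 start per gene was read. Among those 8 members Rplp2, Rpl18, Rpl13a and Rpl15 fell, while Rpl13, Rpl4, Rpl5 and Rpl7a did not pass the test. A match describes these letters only.

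Rplp2, a protein of the ribosomal stalk, was at 2194 and 2234 CPM after PBS and at 845 and 796 after ATO (log2 fold change -1.43, SE 0.21, adjusted p = 0.00476). Rpl18, of the large subunit, went from 1344 and 1140 to 488 and 472 CPM (log2 fold change -1.37, SE 0.21, adjusted p = 0.00551). Rack1, a scaffold on the small subunit, went from 4879 and 4512 to 2176 and 2066 CPM (log2 fold change -1.15, SE 0.22, adjusted p = 0.0111). In each of the 3 the libraries of a group lay close together and far from the other group. Rplp0, the base of the stalk, had the largest loss in CPM of all called genes, from 8339 and 7188 to 3260 and 2689, followed by Rpsa, a small-subunit protein, from 6949 and 6983 to 2367 and 2175. Ribosomal protein genes have many processed pseudogenes, so part of their reads could be placed in either.

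The proteasome, the complex that degrades ubiquitin-tagged proteins, gave the third list that fell. Of 25 subunit genes 16 fell and none rose, with a median log2 fold change of -0.74. Psma6, an alpha-ring subunit, was at 408 and 409 CPM after PBS and at 158 and 146 after ATO (log2 fold change -1.43, SE 0.20, adjusted p = 0.00376), and Psmb5, which carries the chymotrypsin-like activity, fell by 1.18 (SE 0.21, adjusted p = 0.00965). Both held without any 1 library. The list count was 4 without PBS replicate 1, 9 with the replicate number as a block, 8 with total counts and 8 with the length trend removed.

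The direction of change followed the exonic size of the gene. The median exonic size was 6401 bases for genes called higher, 2088 for genes called lower and 3887 for all tested genes. In the shortest of 10 equal bins of genes the median log2 fold change was -0.27, with 68 called higher and 203 lower, and in the longest bin it was 0.53, with 346 higher and 20 lower. Across genes, which are not independent replicates, Spearman's rho of fold change with size was 0.297, and with GC content it was -0.05. With a smooth trend in size removed from each library, an alternative chosen after the data were seen, 1188 genes were called, 557 higher and 631 lower, and 1090 of the original calls kept their direction.

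**Figure D2:**
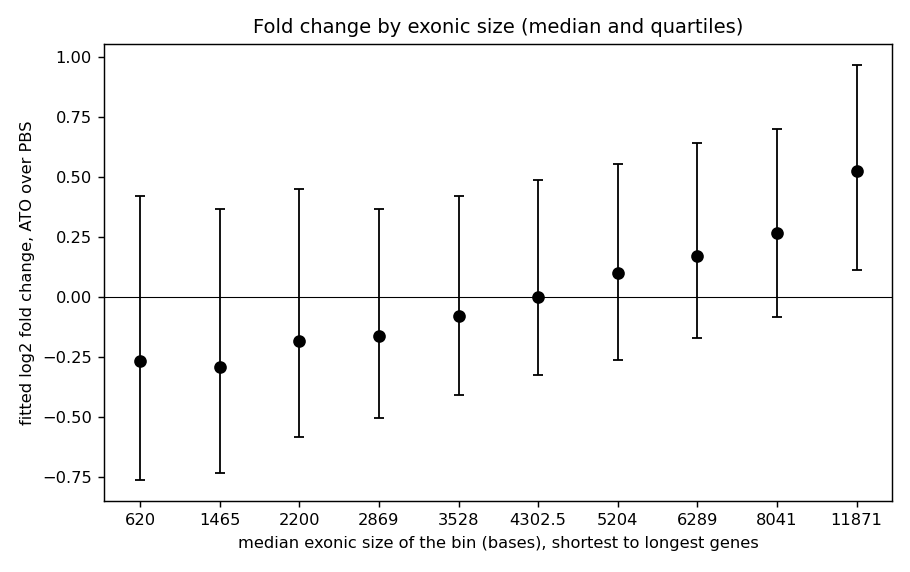
Median fitted log2 fold change, ATO over PBS, in 10 bins of the 15468 tested genes ordered by exonic size, with bars from the lower to the upper quartile. The median rises from -0.27 in the shortest bin to 0.53 in the longest.

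Long nuclear RNAs and long messenger RNAs were among the genes that rose, chosen after their values were seen. Malat1, a nuclear-retained non-coding RNA, had 124 and 334 reads after PBS and 3747 and 2495 after ATO, a rise of 3.80 on the log2 scale (SE 0.40, adjusted p = 0.00262), and of 4.58 without PBS replicate 2. Neat1, the RNA scaffold of paraspeckles, rose by 2.63 (SE 0.33, adjusted p = 0.00376). Xist, the RNA that coats the inactive X chromosome, had 55 and 108 reads after PBS and 771 and 604 after ATO (log2 fold change 3.10, SE 0.34, adjusted p = 0.00294), while the Y-linked gene Ddx3y had 1259 and 2371 reads after PBS and 1592 and 1350 after ATO. Kmt2d, a histone methyltransferase, rose by 2.60, and Plec, Ahnak and Hspg2, very large proteins of the cytoskeleton, membrane and basement membrane, by 2.17, 2.27 and 2.34. With the length trend removed the values were lower and still called for Malat1 (3.66), Neat1 (1.88), Xist (2.45), Kmt2d (1.89), Plec (1.49), Ahnak (1.52) and Hspg2 (1.78).

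Skeletal muscle genes held the largest fold changes. Of 32 tested sarcomere genes 16 rose and none fell, and of 21 genes for muscle calcium handling and energy 8 rose and none fell, against 7.37% of all genes. The median log2 fold changes were 1.99 and 2.08. PBS replicate 1 carried muscle transcripts too: the sarcomere list summed to 496 and 167 CPM after PBS and to 842 and 861 after ATO. Without that library 29 of the sarcomere genes were called, and with the length trend removed 11, and 6 of the calcium and energy genes.

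Genes of embryonic and neonatal muscle were among those that rose. Myh8, the perinatal myosin heavy chain, had no read in either PBS library and 106 and 605 after ATO, at least 235.9-fold higher against a floor of 3 reads over the group. Myh3, the embryonic heavy chain, was at 2.18 and 2.48 CPM after PBS and at 10.4 and 59.1 after ATO (log2 fold change 3.89, SE 0.66, adjusted p = 0.00825), with values of 2.13 without ATO replicate 2 and 4.64 without ATO replicate 1. Actc1, the cardiac actin that developing skeletal muscle also makes, had 1 and 0 reads after PBS and 18 and 548 after ATO, a ratio of 563 with a 95% exact counting interval of 100.7 to 22290. Its fitted log2 fold change, which depends on the prior count, was 8.74. Leaving out any 1 library moved the fold change itself, not its log2, by over 1.5-fold. The log2 value was 4.91 without ATO replicate 2, 7.83 without PBS replicate 2, 9.68 without ATO replicate 1 and 11.1 without PBS replicate 1. Most ATO reads of these 3 genes came from replicate 2, and ATO replicate 1 was above both PBS libraries for each.

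Of 4 tested myogenic regulators 2 rose, Myog and Mymk, while Myf6 (log2 fold change 2.40, adjusted p = 0.109) and Pax7 (1.70, adjusted p = 0.132) were not called. Chrna1, the alpha subunit of the muscle acetylcholine receptor, was at 0.291 and 0 CPM after PBS and at 3.17 and 7.76 after ATO (log2 fold change 5.20, SE 0.89, adjusted p = 0.00863). Its value was 4.17 without PBS replicate 2 and 4.39 without ATO replicate 2. Myog, the transcription factor that commits myoblasts to fuse, went from 13 and 0 reads to 75 and 98 (log2 fold change 3.67, SE 0.86, adjusted p = 0.0211), with a value of 2.63 without PBS replicate 2. Mymk, a membrane protein of myoblast fusion, rose by 4.35 (SE 1.15, adjusted p = 0.0309), a call lost without PBS replicate 2 (3.33), and its value was 5.16 without ATO replicate 1. Without PBS replicate 1 no read of Chrna1, Myog or Mymk is left after PBS, and the fitted values of 9.32, 9.44 and 8.48 depend on the prior count. Tnnt2, the cardiac and embryonic troponin T, went from 4 and 2 reads to 74 and 145 (log2 fold change 5.10, SE 0.64, adjusted p = 0.00376), and its value was 5.71 without PBS replicate 1.

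Sarcomere genes of slow and adult muscle were divided. Myh1, a myosin heavy chain of adult fast muscle, rose by 2.79 (adjusted p = 0.0233). Its value ran from 1.88 to 5.35 over the fits without 1 library. Tnni1, slow troponin I, was at 0.801 and 0.403 CPM after PBS and at 5.61 and 16.9 after ATO (log2 fold change 4.22, SE 0.65, adjusted p = 0.00557), and its value was 3.19 without ATO replicate 2. Neb, the giant ruler of the thin filament, went from 1.82 and 1.61 to 31.8 and 31.7 CPM (log2 fold change 4.20, SE 0.35, adjusted p = 0.000579), and Ttn, the spring of the sarcomere, from 2.11 and 6.18 to 49.3 and 36.5 (log2 fold change 3.36, SE 0.43, adjusted p = 0.00376). Without PBS replicate 2 the value for Ttn was 4.31, and with the length trend removed it was 1.69, against 3.25 for Neb, both still called. Acta1, the adult skeletal actin, was high in 3 libraries: 127 and 4.16 CPM after PBS and 129 and 159 after ATO (log2 fold change 1.14, adjusted p = 0.397). Des (0.85, adjusted p = 0.510) and Ckm, the muscle creatine kinase (0.76, adjusted p = 0.472), likewise did not pass, with PBS replicate 1 between the ATO libraries in both. Without PBS replicate 1 all 3 were called higher, Acta1 at 5.10, Des at 4.02 and Ckm at 2.85. Acta1 (1.27) and Ckm (1.17) were also called without ATO replicate 1, and Des (1.40) without ATO replicate 2. Without PBS replicate 2 Acta1 was at 0.16.

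The calcium-store genes Casq1 and Casq2 also rose. Atp2a1 (2.37, adjusted p = 0.0365), Ryr1 (2.08, adjusted p = 0.00863) and Pygm (2.28, adjusted p = 0.00746) of the same list rose too. Of Atp2a1, Ryr1 and Pygm only Pygm was called with the length trend removed. Atp2a1 was at 1.51 without PBS replicate 2 and at 4.58 without PBS replicate 1. Casq2, the cardiac and slow-muscle calsequestrin, went from 3 and 2 reads to 42 and 182 (log2 fold change 5.36, SE 0.81, adjusted p = 0.00541), and Casq1, its fast-muscle relative, from 24 and 5 to 108 and 226 (3.46, SE 0.65, adjusted p = 0.0105). The value of Casq2 was 4.06 without ATO replicate 2 and 6.02 without ATO replicate 1, and that of Casq1 2.68 without PBS replicate 2 and 5.04 without PBS replicate 1. Ckmt2, the mitochondrial creatine kinase of muscle, had no read after PBS and 11 and 17 after ATO, at least 9.29-fold higher. Its call was lost without either PBS library, and it was not tested without ATO replicate 2. Thbs4, a matrix protein of tendon and muscle, rose by 4.36 (SE 0.52, adjusted p = 0.00376), with values of 3.65 without PBS replicate 2 and 5.64 without PBS replicate 1. In all of these both ATO libraries were above both PBS libraries, as in every gene called higher.

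Promoter stretches of 2 muscle genes that rose are shown for the E-box CAGCTG, the letters favoured by MyoD and myogenin. Each line holds the 120 bases before the annotated start, from RefSeq on GRCm38.p6, with the E-box in capitals. CAGCTG reads the same on both strands. Chrna1 is at chr2:73580339-73580458 on the minus strand and Tnni1 at chr1:135799301-135799420 on the plus strand.
Chrna1: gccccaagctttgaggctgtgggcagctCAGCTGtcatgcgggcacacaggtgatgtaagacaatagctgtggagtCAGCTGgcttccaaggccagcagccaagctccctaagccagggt
Tnni1: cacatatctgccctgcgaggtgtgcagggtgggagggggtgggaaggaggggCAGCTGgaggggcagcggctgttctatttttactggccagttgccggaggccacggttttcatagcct
The matches begin 92 and 44 bases before the start in Chrna1 and 68 bases before it in Tnni1. In the 250 bases before the start, CAGCTG occurred in 10 of 17 calcium and energy genes with an entry (58.8%) and in 9 of 23 sarcomere genes (39.1%), against 12.8% of all 27025 genes. The genes with a match include Acta1, Des and Ckm, which did not pass the test, while Myh8, Myh3, Casq2 and Ttn, which rose, had none. Some small lists outside muscle had like shares, such as 5 of 14 AP-1 and immediate early genes (35.7%) and 3 of 7 keratinocyte genes (42.9%). The letters describe these windows and say nothing of binding in the tumours.

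Collagen and matrix genes rose with muscle genes. Of 20 tested members 16 rose and none fell, with a median log2 fold change of 1.63 and a summed level of 1273 and 686 CPM after PBS and of 1587 and 3381 after ATO. These are long genes (median exonic size 8212 bases), and 9 were called with the length trend removed, 9 with the replicate number as a block and 9 without PBS replicate 2. Col1a1, the main chain of fibrillar collagen, was at 116 and 43.0 CPM after PBS and at 185 and 525 after ATO (log2 fold change 2.15, SE 0.48, adjusted p = 0.0181). ATO replicate 2 was the highest library for it, and without that library the value was 1.19 and still called, while without PBS replicate 1 it was 3.04.

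Genes of the basement membrane and of cell-binding matrix were among the 16. Col4a1, a chain of the basement membrane network, went from 68.4 and 61.6 to 142 and 240 CPM (log2 fold change 1.55, SE 0.26, adjusted p = 0.00728) and Col6a3 from 12.8 and 13.7 to 43.9 and 67.8 (2.07, SE 0.28, adjusted p = 0.00376). Fn1, fibronectin, rose by 2.18 (SE 0.38, adjusted p = 0.00914), and by 1.34 without ATO replicate 2. Col3a1 rose by 1.57 (SE 0.45, adjusted p = 0.0415), a call lost without PBS replicate 2 or ATO replicate 2, where in the latter case the value was 0.42, and with the length trend removed. Without ATO replicate 1 its value was 2.18. Sparc, a collagen-binding protein, was at 346 and 167 CPM after PBS and at 225 and 352 after ATO, so its groups overlapped (log2 fold change 0.17, adjusted p = 0.750). Of 9 fibroblast markers only Pdgfra, a growth factor receptor, was called (log2 fold change 2.18, SE 0.45, adjusted p = 0.0144), and that call was lost without PBS replicate 2.

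Imprinted genes of fetal growth formed a small list that rose. Of 8 tested members 5 rose and none fell, with a median of 2.64 on the log2 scale, and 3 were called without ATO replicate 2. H19, the non-coding RNA of the Igf2 locus, had 96 and 9 reads after PBS and 543 and 1582 after ATO (log2 fold change 4.26, SE 0.73, adjusted p = 0.00861). The value was 3.34 without PBS replicate 2, 3.39 without ATO replicate 2 and 6.87 without PBS replicate 1. Meg3, a maternally expressed non-coding RNA, went from 4 and 8 reads to 84 and 149 (4.23, SE 0.57, adjusted p = 0.00376), or 3.54 with the length trend removed. Grb10, an adaptor that restrains insulin signalling, rose by 2.25 (SE 0.49, adjusted p = 0.0171), and by 1.36 without ATO replicate 2. Peg3 rose by 3.99 (SE 0.89, adjusted p = 0.0181), a call lost without ATO replicate 2 (2.23), and its value was 4.74 without ATO replicate 1. In bulk tumour RNA, more cells of a type and more RNA per cell cannot be told apart, for the muscle, matrix and imprinted genes as for the leukocyte genes below.

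A part of the macrophage and antigen presentation genes fell. Of 18 tested macrophage and monocyte genes 6 fell and none rose, and of 9 MHC class II genes 3 fell and none rose, against 6.57% of all genes. Of 14 genes for MHC class I presentation 2 fell, Psmb8 and Psmb10, which encode proteasome subunits. B2m of the same list was not called (log2 fold change -0.65, adjusted p = 0.0834). None of 4 tested dendritic cell genes was called, with a median log2 fold change of 0.48. The macrophage list summed to 1883 and 1323 CPM after PBS and to 686 and 728 after ATO. Much of that sum came from Apoe (895 and 590 CPM after PBS) and Lyz2 (426 and 337). The median log2 fold change of the list was -0.50, and 5 of the 18 fitted values were above 0. C1qa, a chain of complement C1q made mainly by tissue macrophages, was at 113 and 94.3 CPM after PBS and at 26.2 and 19.3 after ATO (log2 fold change -2.19, SE 0.24, adjusted p = 0.00269). C1qb fell by 1.88 (SE 0.29, adjusted p = 0.00557) and C1qc by 1.69 (SE 0.32, adjusted p = 0.0114), and the 3 calls held without any 1 library and with the length trend removed.

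Other macrophage genes were less uniform. Apoe, the lipid carrier, went from 895 and 590 to 225 and 320 CPM (log2 fold change -1.44, SE 0.26, adjusted p = 0.00979). Lyz2, the lysozyme of myeloid cells, fell by 0.73 (SE 0.20, adjusted p = 0.0366), and Trem2, a lipid-sensing receptor, by 1.49 (SE 0.45, adjusted p = 0.0498), both lost without PBS replicate 1 or ATO replicate 2 and with the length trend removed. Trem2 was at -0.83 without PBS replicate 1 and at -2.12 without ATO replicate 1. The receptor Csf1r, on which macrophages depend, was at 12.9 and 10.6 CPM after PBS and at 8.48 and 15.1 after ATO (log2 fold change 0.01, adjusted p = 0.990). Adgre1, which encodes F4/80, also overlapped between groups (-0.33, adjusted p = 0.592).

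Ccl8, a monocyte-attracting chemokine, had 476 and 803 reads after PBS and 25 and 13 after ATO, the largest fall among protein-coding genes of at least 5 CPM in the higher group (log2 fold change -5.04, SE 0.42, adjusted p = 0.000579). Its value was -5.69 without ATO replicate 1. Ccl12, of the same family, fell by 2.33 (SE 0.57, adjusted p = 0.0242), lost without either PBS library and with the length trend removed, and Aif1, a macrophage actin-binding protein, by 2.01 (SE 0.43, adjusted p = 0.0160), lost without PBS replicate 1. Without ATO replicate 1 they were at -3.29 and -2.71. Cd74, the invariant chain that guides MHC class II, went from 71.3 and 54.4 to 28.5 and 20.5 CPM (-1.36, SE 0.25, adjusted p = 0.0105), and H2-Aa, a class II alpha chain, fell by 1.41 (SE 0.29, adjusted p = 0.0147). H2-Ab1 fell by 0.84 (SE 0.25, adjusted p = 0.0469), lost without PBS replicate 1 or ATO replicate 1 and with the length trend removed.

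The kappa light chain and the J chain of antibodies fell to few reads. Igkc, the constant region of the kappa light chain, had 601 and 382 reads after PBS and 45 and 0 after ATO (log2 fold change -4.41, SE 0.88, adjusted p = 0.0127). Jchain, which links polymeric antibodies, had 167 and 99 reads after PBS and 18 and 0 after ATO (-3.85, SE 0.89, adjusted p = 0.0197). Both calls were kept in each fit without 1 library, with log2 fold changes of -3.40 and -2.83 without ATO replicate 2, and fitted values that depend on the prior count without ATO replicate 1, where no ATO read remains. They were the only 2 of 10 tested B-cell genes called. DESeq2's Wald test called neither of them, nor any other gene of this list. Ighm, the constant region of the mu heavy chain, had 3125 and 2150 reads after PBS and 2157 and 1571 after ATO, and its groups overlapped in CPM (log2 fold change -0.50, SE 0.27, adjusted p = 0.219). Cfd, the complement factor adipsin of fat cells, fell by 3.03 (SE 0.70, adjusted p = 0.0195), by 2.22 without ATO replicate 1 and by 5.42 without ATO replicate 2, and its call was lost with the length trend removed.

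Few cytotoxic genes reached the test. Of 6 tested, Gzma, a granule protease, went from 240 and 463 to 184 and 105 CPM (log2 fold change -1.28, SE 0.32, adjusted p = 0.0260), a call lost without PBS replicate 2 and with the length trend removed. Nkg7 had 15 and 24 reads after PBS and 2 and 1 after ATO, a ratio of 0.0766 with a 95% exact counting interval of 0.0151 to 0.241. Its call was lost without either PBS library or ATO replicate 2. The pan-leukocyte genes Coro1a, Tyrobp and Spi1 fell by 1.00, 1.18 and 1.34, out of 8 tested. Each call was lost without PBS replicate 1, that of Tyrobp also without ATO replicate 2, and those of Tyrobp and Spi1 with the length trend removed.

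**Figure D3:**
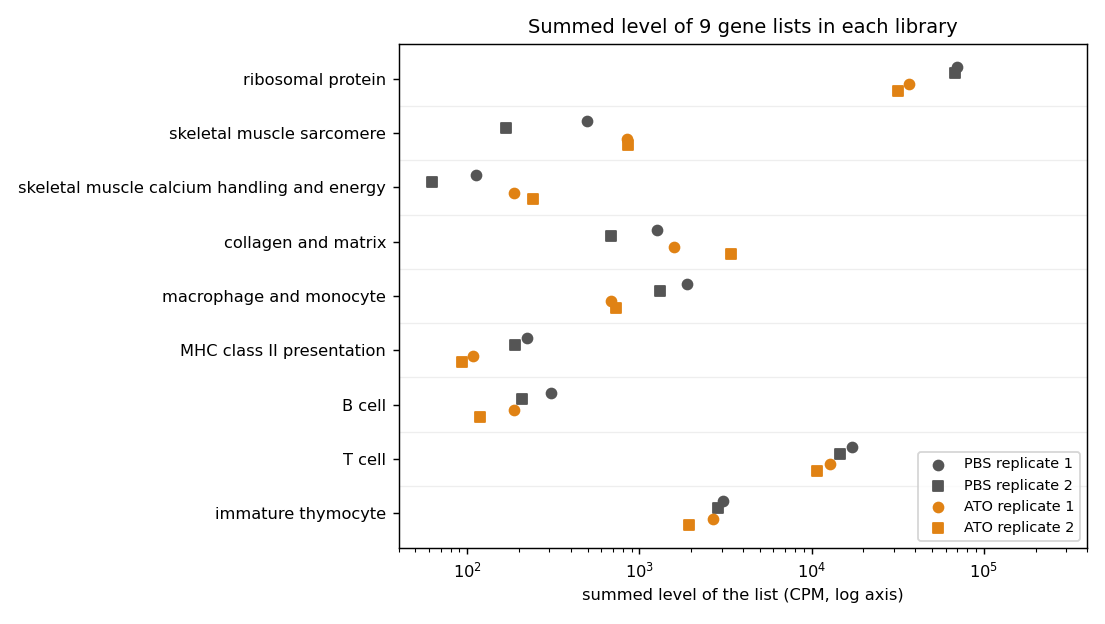
Summed level in CPM on a log axis of 9 gene lists in each of the 4 libraries, grey for PBS and orange for ATO, circles for replicate 1 and squares for replicate 2. The ATO libraries lie to the left for the ribosomal protein and macrophage lists and to the right for muscle, and PBS replicate 1 (496 CPM for the sarcomere list) lies between PBS replicate 2 (167) and the ATO libraries (842 and 861).

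Trp53 and its targets Cdkn1a and Mdm2 did not pass the test. Trp53 itself was at 198 and 146 CPM after PBS and at 154 and 184 after ATO, and its groups overlapped (log2 fold change -0.03, SE 0.22, adjusted p = 0.940). A read count cannot tell a mutant from a normal allele. Cdkn1a, the p21 inhibitor of cyclin-dependent kinases, was at 14.1 and 7.79 CPM after PBS and at 14.5 and 21.5 after ATO (log2 fold change 0.72, SE 0.37, adjusted p = 0.210). Mdm2, the ligase that degrades p53, had a log2 fold change of -0.16 (SE 0.21, adjusted p = 0.651).

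Of 30 tested p53 targets 2 rose and 2 fell, with a median of 0.22, against 7.37% and 6.57% of all genes. Pidd1, a death-domain adaptor, rose by 0.98 (SE 0.24, adjusted p = 0.0233) and Zmat3, an RNA-binding growth inhibitor, by 1.09 (SE 0.33, adjusted p = 0.0467). Bax, which permeabilises mitochondria in apoptosis, went from 1203 and 1112 reads to 642 and 760 (log2 fold change -0.74, SE 0.21, adjusted p = 0.0389), and Rps27l fell by 0.85 (SE 0.20, adjusted p = 0.0230). Each of these 4 calls was lost without PBS replicate 1, those of Pidd1, Zmat3 and Bax also without ATO replicate 1, that of Zmat3 without PBS replicate 2 and that of Bax without ATO replicate 2. Of the 4 only that of Pidd1 was made with the length trend removed. Mdm4, a p53 inhibitor related to Mdm2, rose by 1.17 (SE 0.30, adjusted p = 0.0278), lost without PBS replicate 1 or ATO replicate 1 and with the length trend removed. Bax also belongs to the BCL2 family but was counted here with the p53 targets. Of the 13 tested genes in the BCL2 family list 1 was called, Bad, which fell by 1.14 (SE 0.33, adjusted p = 0.0400). The call of Bad was lost in 3 of the 4 fits without 1 library, the exception being that without ATO replicate 2. It was also lost with the length trend removed.

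Of 6 tested metallothionein and zinc genes 2 fell and none rose. Metallothioneins bind zinc and other thiol-reactive metals and are induced through MTF1. Mt1 was at 328 and 190 CPM after PBS and at 109 and 161 after ATO (log2 fold change -0.94, SE 0.28, adjusted p = 0.0456), and Mt2 at 242 and 119 after PBS and at 63.3 and 98.8 after ATO (-1.16, SE 0.32, adjusted p = 0.0347). PBS replicate 1 was the highest library in both, and both calls were lost without it and with the length trend removed. Mt2 was at -0.57 without it. The call of Mt1 was lost without ATO replicate 1 as well.

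The NRF2 list, genes of antioxidant defence, had 1 rise and 5 falls among 20 tested. Ftl1 and Fth1, the 2 chains of the iron store ferritin, fell by 1.17 (SE 0.25, adjusted p = 0.0149) and 0.86 (SE 0.24, adjusted p = 0.0349). Prdx1, a peroxidase, fell by 0.87, Gstp1, a glutathione transferase, by 1.13 and Taldo1, of the pentose phosphate pathway, by 1.00. None of these 5 was called without PBS replicate 1, and Fth1 was not called with the length trend removed. Abcc1, a transporter that exports glutathione conjugates, rose by 1.28 (SE 0.30, adjusted p = 0.0214), lost without either PBS library or ATO replicate 2 and, at 0.71, with the length trend removed. Hmox1, haem oxygenase, was at 70.5 and 48.5 CPM after PBS and at 29.4 and 54.4 after ATO, and its groups overlapped (log2 fold change -0.50, SE 0.30, adjusted p = 0.271). Without ATO replicate 2 Hmox1 was called lower, at -1.03.

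Of 8 tested genes for arsenic handling and PML, 2 rose and 1 fell. Pml, the scaffold of nuclear bodies, was at 40.8 and 36.8 CPM after PBS and at 67.1 and 70.4 after ATO (log2 fold change 0.83, SE 0.21, adjusted p = 0.0270). Rnf4, the ligase that marks SUMO-bearing PML for degradation, fell by 0.82 (SE 0.20, adjusted p = 0.0239). Both were lost without PBS replicate 1 or ATO replicate 2, and Pml also without PBS replicate 2. As3mt, the arsenic methyltransferase, had a log2 fold change of 0.06 (adjusted p = 0.883).

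Calls among protein stress genes are to be set against 7.37% higher and 6.57% lower of all tested genes. Of 16 heat shock genes 1 fell and none rose: Hspe1, a mitochondrial chaperonin, by 0.83 (SE 0.23, adjusted p = 0.0343), lost without PBS replicate 2 or ATO replicate 1 and with the length trend removed. Without ATO replicate 1 the list had 4 calls higher, and without ATO replicate 2 it had 5 lower. Hspa1a, the inducible HSP70, was higher in replicate 2 than in replicate 1 of each group, at 0.655 and 17.2 CPM after PBS and at 1.55 and 55.9 after ATO. Its log2 fold change was called at 5.42 without PBS replicate 2, at 2.62 without ATO replicate 1 and, in the other direction, at -2.54 without ATO replicate 2. Of 23 genes of the ATF4 and unfolded protein response 1 rose, Aldh1l2 (2.98, SE 0.76, adjusted p = 0.0266), and 2 fell, Sdf2l1 (-0.98, SE 0.22, adjusted p = 0.0192) and Phgdh (-0.81, SE 0.24, adjusted p = 0.0431). All 3 were lost without PBS replicate 1, Aldh1l2 also without PBS replicate 2 or ATO replicate 2, and Phgdh also without ATO replicate 1. Sdf2l1 and Phgdh were not called with the length trend removed. Aldh1l2 was at 3.67 without PBS replicate 2 and at 2.22 without ATO replicate 2.

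Of 34 tested cell cycle genes 3 rose and none fell, against 7.37% higher and 6.57% lower of all tested genes. The list median was -0.13, and the 3 encode large proteins. Mki67, the Ki-67 antigen, was at 276 and 321 CPM after PBS and at 887 and 836 after ATO (log2 fold change 1.53, SE 0.21, adjusted p = 0.00376), and held without any 1 library and with the length trend removed. The kinetochore genes Cenpe and Cenpf rose by 0.99 (SE 0.20, adjusted p = 0.0137) and 1.02 (SE 0.21, adjusted p = 0.0137), both lost without PBS replicate 1, and Cenpf also with the length trend removed. Of 14 tested vessel genes 1 rose and 2 fell, and 12 had fitted values above 0, with a median of 0.60. Kdr, the VEGF receptor, rose by 1.98 (SE 0.45, adjusted p = 0.0185). Cldn5, an endothelial junction protein, fell by 1.58 (SE 0.46, adjusted p = 0.0418) and Egfl7 by 0.89 (SE 0.22, adjusted p = 0.0256). Kdr was lost without PBS replicate 2 or ATO replicate 2 (1.22), Cldn5 without either PBS library or ATO replicate 2 and with the length trend removed, and Egfl7 without either PBS library or ATO replicate 1. Vegfa, a hypoxia-responsive ligand of Kdr, rose by 1.06 (SE 0.25, adjusted p = 0.0225), lost without PBS replicate 1.

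**Figure D4:**
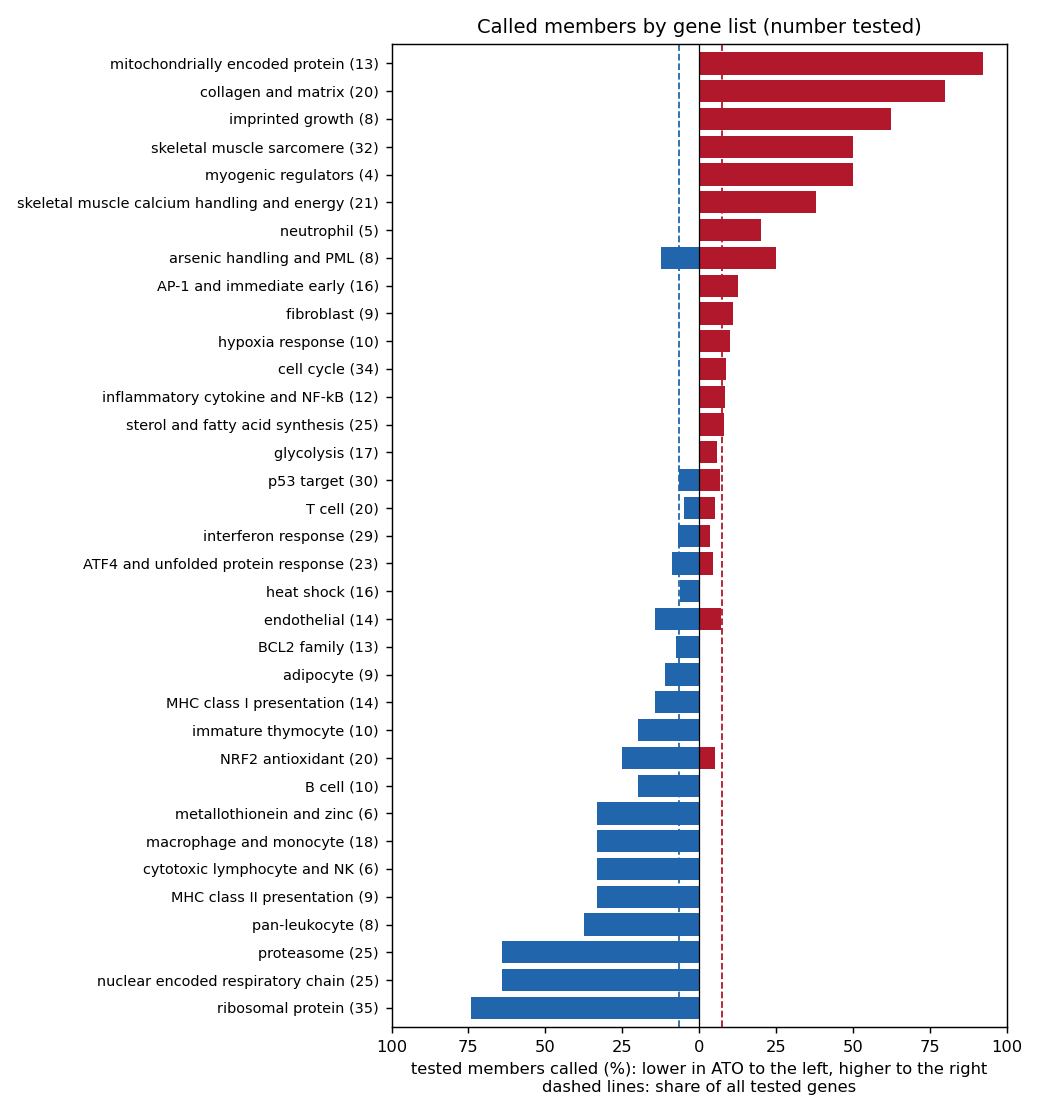
Share of the tested members of each list called higher (red, to the right) or lower (blue, to the left) after ATO, for lists with at least 4 tested members and at least 1 call. Dashed lines mark the shares among all tested genes, 7.37% higher and 6.57% lower; mitochondrially encoded, matrix, imprinted and muscle lists extend far to the right, and ribosomal protein, respiratory chain and proteasome lists far to the left.

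**Figure D5:**
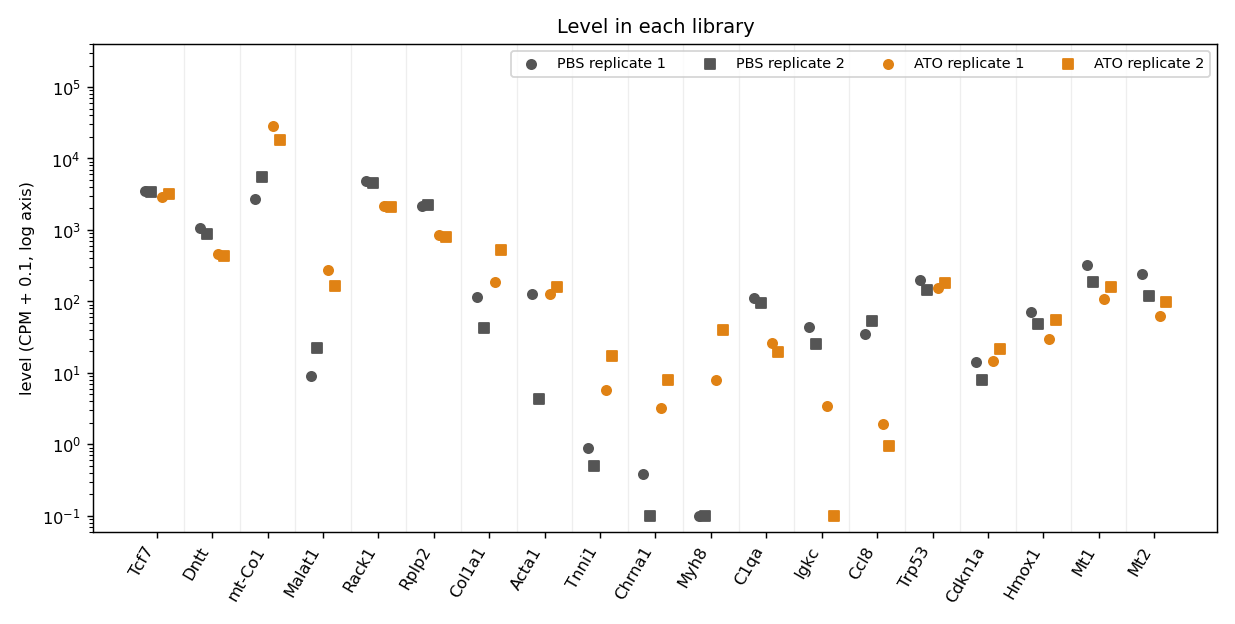
Level of 19 genes in each library, as CPM plus 0.1 on a log axis, grey for PBS and orange for ATO, circles for replicate 1 and squares for replicate 2. The 2 groups stand apart for mt-Co1, Malat1, Rack1 and C1qa, and mix for Trp53 and Hmox1; for Acta1 PBS replicate 2 alone is low.

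The largest single changes by the naming rule lay mostly in the groups above. Outside them, Nlrp1b, an inflammasome sensor, had 8 and 2 reads after PBS and 264 and 45 after ATO (log2 fold change 4.95, SE 0.92, adjusted p = 0.0104), unequal between the ATO libraries. Leaving out any 1 library moved its fold change, not the log2 of it, by over 1.5-fold. The log2 value was 3.02 without ATO replicate 1, 4.21 without PBS replicate 2, 5.74 without ATO replicate 2 and 6.27 without PBS replicate 1. Fosb, an AP-1 factor, rose by 4.15 (SE 1.01, adjusted p = 0.0233), with 12 and 140 reads after ATO, and was lost without PBS replicate 1 or ATO replicate 2 (1.63), with a value of 5.02 without PBS replicate 2 and close to that without ATO replicate 1. Among the falls, Tesc, a calcium-binding protein, went from 580 and 541 reads to 122 and 66 (log2 fold change -2.56, SE 0.36, adjusted p = 0.00376), and was at -3.19 without ATO replicate 1. Tmem160 fell by 1.84 (SE 0.22, adjusted p = 0.00376) and Polr2l, a small subunit shared by the RNA polymerases, by 1.79 (SE 0.27, adjusted p = 0.00534), and these 3 held without any 1 library.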

How the data were processed

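RNA of grafted tumours was sequenced as 4 libraries, 2 per group, and the number of tumours behind them is not given. Per the submitters' processing notes, reads were checked with FastQC 0.10.1, trimmed with cutadapt 1.9.1 and aligned with HISAT2 2.0.1. The counting program, its use of strand, the annotation and the strand of the kit are not given in the sources used here, and the recorded extract protocol includes a cell-culture passage that does not describe tumours. Raw counts per gene were deposited by the authors beside FPKM values, which equal the count divided by exonic size and library total. Gene coordinates of the table were not used, since its build is not named.

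The test was edgeR's, version 4.0.16 under R 4.3.3 (filterByExpr with a minimum count of 10, TMM scaling, quasi-likelihood test, Benjamini-Hochberg adjustment over the 15468 tested genes, threshold 0.05). Standard errors come from the fold change and the F statistic. Alternatives used DESeq2 1.42.0, limma 3.58.1, other scalings and filters, and fits without 1 library. A floor of 3 reads over a group bounds folds against 0, and such intervals cover counting error only. The script was checked on simulated data.

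Members and gene lists (50, written from general knowledge) were chosen with earlier results of these data known. The genes named are the 15 largest rises and 15 largest falls among called protein-coding genes with no overlap and at least 5 CPM in the higher group, the 10 largest rises and falls in CPM, Trp53, Cdkn1a, Mdm2, Mt1, Mt2 and Hmox1, and up to 6 called and 3 abundant members of each list, from which the text gives a part. Some genes are not reported here. Genes said to be chosen after their values were seen fall outside this rule. Promoter sequences are from RefSeq, GRCm38.p6, matched by symbol.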

Additional observations from a re-analysis of the deposited data

How the results depend on the processing

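The number of called genes, 2157 (1140 higher, 1017 lower), stayed within 1.5 times under DESeq2 size factors, DESeq2's Wald test, limma-voom, the stricter filter, and without mitochondrial or muscle genes. Without a filter it was 3274 (1567 lower), and with total counts the split was 1800 higher and 520 lower. Leaving out 1 library gave 685 to 2420 calls, 400 to 1412 higher and 285 to 1191 lower, the lowest without PBS replicate 1; a lone library of an arm was assumed to vary like the other group. The length trend removed gave 1188 (557 higher, 631 lower), and length and GC trends removed 1139 (504 and 635). The labels do not say whether libraries with the same replicate number are paired. Their deviations from the group means correlated at r = -0.117 over 15468 genes. With 2 libraries a group, that value cannot decide whether they share a batch. With the replicate block 1350 genes were called, 656 higher. With the numbers crossed, chosen after seeing the data, the block gave 3298 calls, 1819 higher.

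Of 138 named genes called, none changed direction in any alternative. The uncalled values that changed sign (log2) were as follows. With total counts Cd3e was 0.047, Rag1 0.175, Trp53 0.171 and Mdm2 0.03, and with the stricter filter Rag1 was 0.074 and Trp53 0.06. Csf1r was -0.031 under DESeq2, -0.029 under limma-voom, -0.037 without a filter, -0.04 and -0.041 with the replicate block and the crossed block, -0.083 with length removed and -0.096 with length and GC removed. In those last 2 fits Notch1 was -0.444 and -0.477, and Trp53 0.009 and 0.011. Over the fits without 1 library Cd3e ran from -0.402 to 0.104, Rag1 from -0.164 to 0.091, Rag2 from -0.706 to 0.026, Notch1 from -0.06 to 0.158, Des from -0.10 to 4.02, Ckm from -0.091 to 2.854, Sparc from -0.286 to 0.776 and Csf1r from -0.488 to 0.353. Adgre1 ran from -0.804 to 0.008, Trp53 from -0.259 to 0.196 and As3mt from -0.168 to 0.231. Hspa1a ran from -2.542, without ATO replicate 2 (adjusted p = 0.00843), to 5.421, without PBS replicate 2. Causes were not tested. With 2 libraries a side, small changes of low genes were not detectable.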

Other observations

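Lipid synthesis, inflammatory and interferon genes are not described above. Of 25 tested genes of sterol and fatty acid synthesis 2 rose and none fell, with a median log2 fold change of 0.21. Lss, which closes the sterol rings, was at 35.4 and 39.0 CPM after PBS and at 62.3 and 81.3 after ATO (0.95, SE 0.22, adjusted p = 0.0214), a call lost without PBS replicate 1 or ATO replicate 2 and with the length trend removed. Of 29 interferon-response genes 1 rose and 2 fell. Stat2, a transducer of type I interferon signals, rose by 0.89 (SE 0.24, adjusted p = 0.0338), kept only without ATO replicate 2 among the fits without 1 library and lost with the length trend removed. Ifi27l2a fell by 2.13 (SE 0.60, adjusted p = 0.0375), lost without PBS replicate 2 (-1.36) and with the length trend removed, and was at -2.78 without ATO replicate 1.

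Immediate early and inflammatory genes that rose were highest in ATO replicate 2. Of 16 AP-1 and immediate early genes 2 rose, Fosb and Fosl2. Fosl2 was at 4.59 and 3.63 CPM after PBS and at 8.41 and 15.8 after ATO (1.56, SE 0.43, adjusted p = 0.0340), and was lost without either PBS library or ATO replicate 2 and with the length trend removed. Ptgs2, the inducible cyclooxygenase, was the only 1 of 12 inflammatory genes called (2.96, SE 0.74, adjusted p = 0.0248), with 1.25 and 3.22 CPM after ATO against 0.364 and 0.201 after PBS, and was lost in the same 3 fits without 1 library, with a value of 2.10 without ATO replicate 2. Of 8 tested genes of immune checkpoints and regulatory T cells none was called.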
